A study of Mus musculus with 14 samples.

Results

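The vacuolar H+-ATPase (V-ATPase) and lysosomal hydrolase genes described here are 41 listed mouse genes, matched by symbol to 41 of the 33939 Ensembl rows of the deposited expression table. They comprise 7 subunits of the membrane-bound V0 sector of the pump, 8 subunits of the cytosolic V1 sector, 2 accessory subunits, 11 lysosomal proteases, 7 glycosidases, lipid hydrolases and their activator, and 6 membrane or other lysosomal proteins. RNA was sequenced from CD11b+ microglia/macrophages, pulled from dissociated hemispheres with magnetic beads at 3 days after a traumatic brain injury (TBI). The ipsilateral hemisphere (IL) is the injured side and the contralateral hemisphere (CL) the side without a lesion. Ctrl mice were C57BL/6 animals heterozygous for Cx3cr1-CreER, and cKO mice carried the same Cre allele together with floxed alleles of the gene that the study deletes. All mice were 8 to 12 weeks old, and both genotypes received tamoxifen, so Cre and tamoxifen were shared by every group. Ctrl mice gave 4 libraries from each hemisphere and cKO mice gave 3 from each, from 8 mouse numbers, of which 6 had both hemispheres. The Cx3cr1 driver is active in microglia and in other Cx3cr1-expressing macrophages, and by the study's methods injury followed tamoxifen after a wait meant to let blood monocytes be replaced by cells without recombination. The CD11b beads retain any CD11b+ myeloid cell, so a library can hold infiltrating cells beside resident microglia.

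The V-ATPase hydrolyses ATP in its V1 sector and drives protons through its V0 sector, which acidifies the lysosome. The cathepsins, glycosidases and lipid hydrolases work at that low pH on the proteins, glycans and lipids that a phagocyte takes up. Microglia and macrophages clear debris by this route, and many lysosomal genes carry the CLEAR element, a palindromic E-box bound by transcription factor EB (encoded by *Tfeb*) and its relatives.

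The libraries held 12.2 to 41.6 M reads assigned to genes (1 M is 1000000), and the shallowest was the Ctrl IL library of mouse 3546. The values are counts per 1000000 reads (CPM) as deposited, so a level is a share of a library's reads. *Itgam*, which encodes CD11b, was at 650.3, 849, 1250.0 and 1714 CPM in Ctrl CL, 749.9, 771, 1385 and 1439 in Ctrl IL, 919, 1215 and 1202 in cKO CL and 1283, 1204 and 1354 in cKO IL. In every group the summed level of 10 neuronal markers stayed at or under 22.9 CPM, and that of 8 astrocyte markers at or under 231 CPM. The 10 neutrophil markers summed to 595 to 8070 CPM in Ctrl CL, with the highest sum in mouse 3541, and to 197 to 1770 CPM across the other 3 groups. Values per library are given below in the order of mice 3541, 3545, 3546 and 3551 for Ctrl, 788, 791 and 3592 for cKO CL, and 784, 791 and 3592 for cKO IL.

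Promoter windows from RefSeq, of 300 bases each with 250 before and 50 after a transcription start (build GRCm38.p6), were found for 32 of the 41 genes. Of these 32 genes, 8 (25%) held the CLEAR core TCACGTGA, which reads the same on both strands, against 304 of 27025 genes (1.12%) in the whole RefSeq promoter table. The shorter E-box CACGTG, which lies inside the CLEAR core, was found in 14 of the 32 (43.8%) against 2187 of 27025 (8.09%). Many lysosomal genes carry the CLEAR element, so a higher share in a list of such genes was to be foreseen and was not tested. The 8 genes with the core were *Atp6v0d1*, *Atp6v0e*, *Atp6v1a*, *Cln3*, *Ctsa*, *Ctsd*, *Gla* and *Mcoln1*. The windows below are the stretches before the start site that hold a whole core and, for *Ctsl*, its lone E-box, which are in capitals. They are shown because *Gla*, *Atp6v1a* and *Ctsl* were 3 of the 4 genes called higher in the injured hemisphere of Ctrl mice without the mouse as a block (22 were called higher with it). *Atp6v0b*, *Ctsf*, *Glb1*, *Lamp1* and *Lgmn* also held an E-box without a core and are not shown. None of these was called there without the block. In Ctrl *Ctsf* was 1.4-fold and *Atp6v0b* 1.03-fold lower in IL, and *Glb1*, *Lamp1* and *Lgmn* were 1.34-fold, 1.33-fold and 1.23-fold higher. A link between motif and change was not tested. *Gla* (chrX:134601006-134601255, minus strand) is given for all 250 bases before its start and holds 2 cores, which begin 228 and 195 bases before it. The others are *Atp6v1a* (chr16:44139358-44139417, minus strand), *Ctsl* (chr13:64370725-64370770, minus strand), *Cln3* (chr7:126583325-126583384, minus strand), *Ctsd* (chr7:142387893-142387952, minus strand), *Ctsa* (chr2:164833734-164833772, plus strand) and *Mcoln1* (chr8:3500447-3500506, plus strand).
Gla: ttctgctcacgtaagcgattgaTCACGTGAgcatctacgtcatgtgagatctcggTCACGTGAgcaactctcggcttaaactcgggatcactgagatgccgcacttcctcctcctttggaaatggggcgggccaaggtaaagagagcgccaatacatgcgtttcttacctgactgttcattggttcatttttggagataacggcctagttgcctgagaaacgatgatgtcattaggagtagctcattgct
Atp6v1a: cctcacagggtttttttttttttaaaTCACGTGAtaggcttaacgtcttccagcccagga
Ctsl: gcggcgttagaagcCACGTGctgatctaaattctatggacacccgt
Cln3: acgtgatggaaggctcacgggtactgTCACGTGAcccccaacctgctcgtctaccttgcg
Ctsd: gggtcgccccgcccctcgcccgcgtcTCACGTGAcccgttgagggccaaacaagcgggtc
Ctsa: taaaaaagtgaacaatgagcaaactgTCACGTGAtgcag
Mcoln1: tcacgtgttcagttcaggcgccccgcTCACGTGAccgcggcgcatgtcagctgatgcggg

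No window was found for *Asah1*, *Atp6v0a2*, *Atp6v0d2*, *Atp6v1b2*, *Atp6v1c1*, *Atp6v1g1*, *Atp6v1h*, *Ctsb* and *Ctsh*. In the comparison of IL with CL in Ctrl, described further on, the 8 genes with a core had a median log2 fold change of 0.51, with 2 of the 8 called higher, and the 24 genes whose window lacked it had a median of 0.34, with 1 of the 24 called higher. In cKO the medians were 0.52, with 5 of the 8 called, and 0.32, with 9 of the 24 called. With the mouse as a block, described with that comparison, 4 of the 8 and 12 of the 24 were called higher in Ctrl, and 4 of the 8 and 4 of the 24 in cKO. Over all genes tested 3.63% were called higher in Ctrl and 12.8% in cKO, and 9.81% and 8.89% with the block. *Mcoln1* and *Ctsa* also held a core, and their log2 fold changes in Ctrl were 0.04 ± 0.18 (SE) and 0.24 ± 0.23, neither of them called.

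Levels were compared between genes only per length, as CPM per kilobase (kb) of merged exons averaged over the 14 libraries. *Ctsd*, which encodes the aspartic protease cathepsin D, had the highest level at 12100 CPM per kb. The cysteine protease genes *Ctss*, *Lgmn*, *Ctsz* and *Ctsb* followed at 3750, 2290, 1970 and 1550 CPM per kb. The V-ATPase genes lay lower, from 225 CPM per kb for *Atp6v1g1* (a V1 stalk subunit) to 1.94 for *Atp6v0d2*. The catalytic V1 subunit gene *Atp6v1a* was at 27.9 CPM per kb and its partner in the ATPase ring *Atp6v1b2* at 62.2. Among the genes of the proton-conducting part, *Atp6v0b* was at 176 and *Atp6v0c* at 169 CPM per kb.

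Paralogous V0 subunits differed in level. In Ctrl CL, *Atp6v0d1*, the widely expressed d subunit, was at 56.8 ± 13.1 CPM per kb (SD, n = 4) and *Atp6v0d2*, the form known from osteoclasts and macrophages, at 0.989 ± 0.693. Of the a subunits, *Atp6v0a1* was at 24.7 ± 4.84 CPM per kb and *Atp6v0a2* at 49.1 ± 10.1 in Ctrl CL. The lysosome and osteoclast a3 subunit gene *Tcirg1* is not among the 41 and is described with the other genes of the pathway. Some levels could be split between near-identical sequences. *Atp6v0c* shares 99.8% of 465 aligned bases with *Atp6v0c-ps2*, whose mean was 94.9 CPM and which held 11.7% to 20.7% of the summed level of the pair in each library. *Ppt1* shares 129 exon bases with *Cap1* and *Ctsa* shares 495 with *Pltp*, each on the opposite strand.

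**Figure D1:**
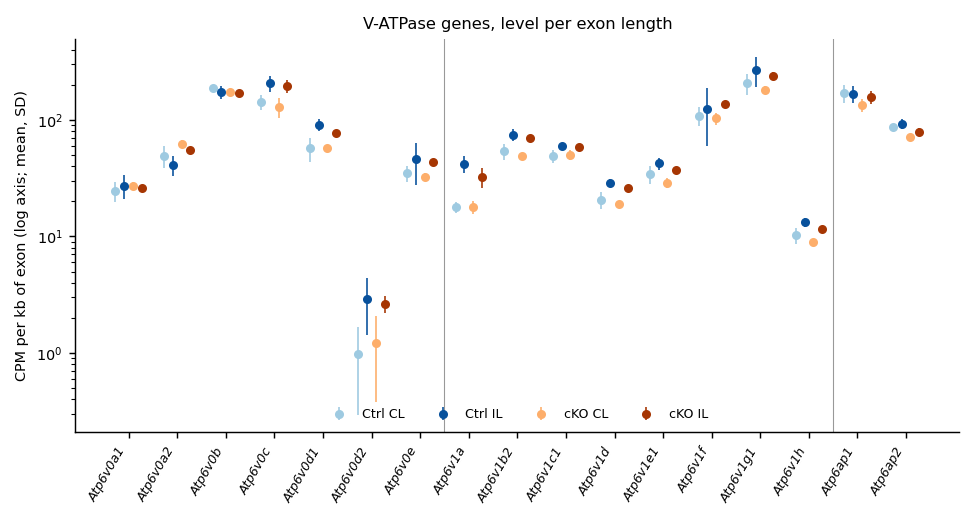
Level of the 17 V-ATPase genes in CPM per kb of exon (log axis), as mean and SD in each genotype and hemisphere (4 Ctrl and 3 cKO libraries per hemisphere); vertical lines separate V0, V1 and accessory subunits. *Atp6v0d2* lies far below the other genes in all 4 groups.

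The first comparison asked how these genes differed between the injured and the uninjured hemisphere. In Ctrl mice 4 of the 41 genes were called, all higher in IL, namely *Gla* (8.44-fold), *Ctsb* (2.52-fold), *Atp6v1a* (2.47-fold) and *Ctsl* (1.77-fold). In cKO mice 20 of the 41 were called, all higher in IL, and these included the same 4 genes, of which *Gla* was again the largest at 4.69-fold. A gene was called at an adjusted p at or under 0.05, by limma on log2(CPM + 1) with Benjamini-Hochberg adjustment over all genes tested, together with a fold change of at least 1.2. Over all genes tested, 6.58% were called in Ctrl (3.63% higher and 2.96% lower in IL) and 22.4% in cKO (12.8% higher and 9.52% lower). The share called higher among the 41 was 9.76% in Ctrl and 48.8% in cKO. The median log2 fold change of the 41 was 0.40 in Ctrl and 0.45 in cKO, against -0.04 and 0.02 for all genes tested, and 36 and 37 of the 41 were above 0. Every IL library lay above every CL library for 15 of the 41 genes in Ctrl and 26 in cKO, where this held for 6.26% and 18.1% of all genes, and below for 1 gene in each (*Ctsf* in Ctrl and *Ctss* in cKO), where this held for 11.4% and 24.3%. In a bulk sample, fewer cells of a type and less RNA per cell cannot be told apart.

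The labels pair the hemispheres by mouse number, so the comparison was also made with that number as a block. Deviations from the group means correlated at 0.182 to 0.608 within a mouse. Other pairs ranged from -0.536 to 0.503, so the ranges overlapped. With the block, 23 of the 41 genes were called in Ctrl, 22 higher and *Ctsf* lower, where 9.81% of all genes were called higher and 10.7% lower. In cKO the block left 12 called, 11 higher and *Ctsf* lower, against 8.89% and 4.93% of all genes. Without the Ctrl CL library of mouse 3541, which had the high neutrophil sum, 6 of the 41 were called in Ctrl without the block, and 4 without the Ctrl IL library of mouse 3546. The count fell to 2, *Gla* and *Atp6v1a*, without the IL library of mouse 3541, the IL library of mouse 3545 or the CL library of mouse 3546. In cKO the 20 became 8 without the IL library of mouse 784, 9 without that of mouse 791, 13 without the CL library of mouse 788 or of mouse 791, 14 without the IL and 15 without the CL library of mouse 3592, and 4 with all 14 libraries in 1 fit. The 8 that stayed called in cKO without each library in turn were *Gla*, *Atp6v0d1*, *Atp6v0e*, *Atp6v1a*, *Atp6v1b2*, *Atp6v1d*, *Atp6v1g1* and *Atp6v1h*. Of the other 12, *Ctsh* lost its call without IL of mouse 784 alone, and *Ctsl* and *Atp6v1f* without IL of mouse 784 or 791. *Gusb* lost it without either of these or CL of mouse 788, and *Atp6v1e1* without any of these 3 or CL of mouse 791. By the mouse numbers 2 cKO mice had both hemispheres, so the blocked cKO values rest on those 2 mice. A limma adjusted p with the block belongs to that fit, whose log2 fold changes in cKO are not those of the fit without it. Of all calls in Ctrl, 55.1% were higher in IL after scaling and 43.4% with the deposited CPM as they stood, and in cKO these shares were 57.4% and 43.4%. The direction of each gene called in either genotype was the same under every scaling tried.

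Markers of cell state moved with the hemisphere. The summed level of 10 homeostatic microglia markers was 38800 to 43900 CPM in Ctrl CL, 21300 to 26000 in Ctrl IL, 36800 to 40400 in cKO CL and 21400 to 23700 in cKO IL. Those of 10 disease-associated microglia markers were 5110 to 8600, 22100 to 45100, 5700 to 12800 and 20600 to 26500 CPM in the same order. For 10 markers of infiltrating monocytes the sums were 282 to 849, 766 to 1330, 166 to 475 and 713 to 1100 CPM. The neutrophil markers summed to 595 to 8070, 197 to 1090, 637 to 1770 and 274 to 449 CPM, and 13 genes of the response to tissue dissociation to 31500 to 41300, 22900 to 26300, 35700 to 49800 and 23700 to 27700 CPM. Of the homeostatic markers 7 of 10 were called lower in each genotype, and of the monocyte markers 4 of 10 in Ctrl and 5 of 10 in cKO were called higher. Of the neutrophil markers 6 of 10 were called lower in cKO (7 with the block), and 0 in Ctrl (9 with it). Of the dissociation genes 5 of 13 were called lower in cKO, with or without the block, and 0 in Ctrl (5 with it). The sums of 6 B cell markers, of which 4 were under 1 CPM in every library, were 550 to 833, 322 to 350, 657 to 756 and 320 to 489 CPM, and *Ighm* was called lower in both genotypes. Those of 10 T and NK cell markers were 14.2 to 24.3, 6.07 to 8.88, 6.6 to 11.7 and 5.74 to 14.5 CPM, with 3 called lower in Ctrl (4 with the block) and 0 in cKO. The astrocyte sums were 213 to 231, 127 to 178, 183 to 219 and 138 to 197 CPM, but members of that list went both ways. *Gfap* was called higher in Ctrl (1.85 ± 0.27) and cKO (1.95 ± 0.31) and *S100b* higher in cKO (0.82 ± 0.17), while *Slc1a3* was called lower in both (-1.16 ± 0.15 and -0.80 ± 0.18). The sums of 10 oligodendrocyte, 8 endothelial and 8 border-associated macrophage markers overlapped between the hemispheres in both genotypes. Of their members, *Ms4a7* was called higher in both genotypes (1.35 ± 0.31 and 1.40 ± 0.19), *Cbr2* lower in Ctrl (-0.90 ± 0.24), and *Mbp*, *Mobp*, *Olig1*, *Kdr* and *Esam* higher in cKO (log2 fold changes from 0.40 to 1.25). With the block 3 oligodendrocyte markers were called lower in Ctrl and 1 higher in cKO, 1 endothelial marker higher and 2 lower in Ctrl and 1 higher in cKO, and 1 border-associated macrophage marker higher and 3 lower in Ctrl and 3 higher and 1 lower in cKO. For 6 genes of the CD11b sort and the myeloid lineage they were 4840 to 5660, 5400 to 9350, 4770 to 6010 and 7110 to 8960 CPM. None of the markers on these 12 lists was at 0 in every library, and their part in the differences below was not tested.

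**Figure D2:**
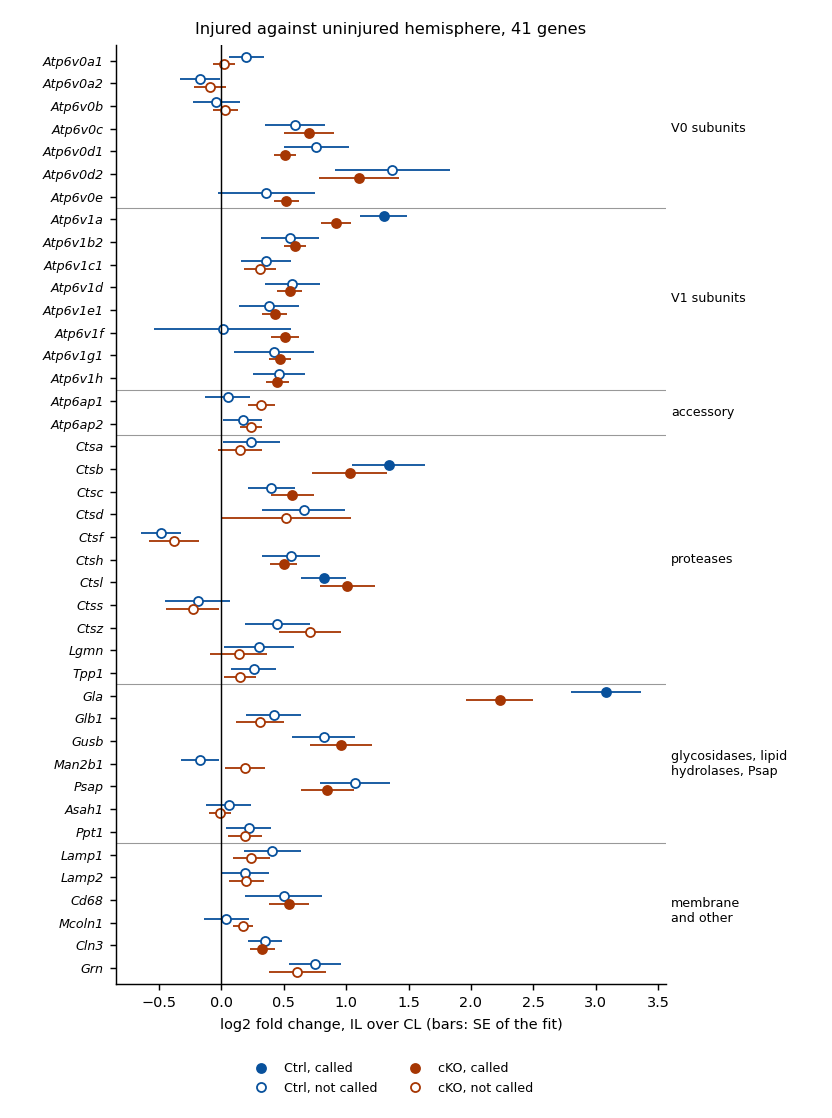
Log2 fold change of IL over CL for each of the 41 genes in Ctrl (blue, 4 against 4 libraries) and cKO (brown, 3 against 3), with the SE of the limma fit; filled points were called. *Gla* lies at 3.08 in Ctrl and 2.23 in cKO, and *Ctsf*, *Ctss* and *Atp6v0a2* lie below 0 in both.

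Among the V0 subunits 0 of 7 were called in Ctrl without the block, 3 with it, 4 in cKO without it and 3 with it. *Atp6v0c*, which encodes the c subunit of the proton-carrying ring, was at 579.9, 473, 406 and 483 CPM in Ctrl CL, 777, 781, 556 and 672 in Ctrl IL, 476, 487 and 336 in cKO CL and 693, 717 and 561 in cKO IL. Its groups did not overlap in cKO, where the log2 fold change was 0.70 ± 0.20 (SE) with a limma adjusted p of 0.038, a call lost without IL of mouse 784 or 791 or CL of mouse 791 or 3592 and with all 14 libraries in 1 fit, and in Ctrl it was 0.59 ± 0.24 with 0.18 without and 0.0049 with the block. *Atp6v0d1*, which joins the V1 stalk to the ring, was at 119.8, 123, 89.9 and 74.7 CPM in Ctrl CL, 184, 168, 159 and 137 in Ctrl IL, 96.3, 105 and 106 in cKO CL and 131, 141 and 141 in cKO IL. Every IL library lay above every CL library of its genotype, and the log2 fold change was 0.76 ± 0.26 in Ctrl, with limma adjusted p of 0.12 without and 0.002 with the block, and 0.51 ± 0.09 in cKO, with 0.0072. The paralog *Atp6v0d2* was at 1.88, 5.12, 0.706 and 3.05 CPM in Ctrl CL, 13.5, 7.91, 5.89 and 4.33 in Ctrl IL, 1.96, 2.04 and 6 in cKO CL and 6.32, 6.61 and 8.57 in cKO IL. It was called in cKO (1.10 ± 0.32, limma adjusted p = 0.04) but not with the block (0.066) or without any 1 cKO library other than CL of mouse 3592, and in Ctrl only with the block (1.37 ± 0.46, limma adjusted p = 0.034 against 0.12 without).

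The a subunits and *Atp6v0b* behaved unlike these 3 genes in value. *Atp6v0a1* was at 129.9, 144, 201 and 173 CPM in Ctrl CL, 151, 141, 231 and 189 in Ctrl IL, 163, 179.6 and 189 in cKO CL and 158, 168 and 182 in cKO IL, with log2 fold changes of 0.20 ± 0.14 in Ctrl and 0.02 ± 0.09 in cKO. *Atp6v0a2* was at 362, 229.5, 351 and 377 CPM in Ctrl CL, 215, 245, 328 and 319 in Ctrl IL, 450.5, 412 and 388 in cKO CL and 388, 383 and 339 in cKO IL, with -0.17 ± 0.16 and -0.09 ± 0.13. *Atp6v0b*, another part of the ring, was at 384, 396, 384 and 364 CPM in Ctrl CL, 376, 378, 289 and 375 in Ctrl IL, 347, 339.8 and 391 in cKO CL and 344, 335 and 358 in cKO IL, with -0.04 ± 0.19 and 0.03 ± 0.10. For these 3 genes the hemispheres overlapped and the 95% intervals in cKO ran from -0.19 to 0.22, -0.39 to 0.22 and -0.19 to 0.25 on the log2 scale. *Atp6v0e* was called in cKO (0.52 ± 0.10), and in Ctrl it had 0.36 ± 0.39 with all libraries and 0.79 ± 0.23 without the IL library of mouse 3546, with limma adjusted p of 0.69 and 0.06.

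Of the 8 V1 subunit genes, *Atp6v1a* alone was called in Ctrl without the block and 6 with it, and in cKO 7 were called without the block and 5 with it. *Atp6v1a*, the catalytic A subunit, was at 119, 109, 112 and 89.6 CPM in Ctrl CL, 261, 217, 313 and 227 in Ctrl IL, 93.4, 120.2 and 112 in cKO CL and 173, 176 and 240.0 in cKO IL. Every IL library lay above every CL library in each genotype, with log2 fold changes of 1.30 ± 0.19 (limma adjusted p = 0.0033) in Ctrl and 0.92 ± 0.12 (0.003) in cKO. *Atp6v1d*, of the central rotor, was at 106, 112, 81 and 81.7 CPM in Ctrl CL, 139, 144, 128 and 124 in Ctrl IL, 87.6, 92.4 and 79.4 in cKO CL and 115, 120.3 and 124 in cKO IL, and *Atp6v1b2*, the other subunit of the ATPase ring, at 329, 323, 245 and 247 CPM in Ctrl CL, 455, 405, 379.6 and 348 in Ctrl IL, 243, 276 and 263 in cKO CL and 358, 359.9 and 389 in cKO IL. Their groups did not overlap either, and in Ctrl their log2 fold changes of 0.57 ± 0.22 and 0.55 ± 0.23 were called with the block only. *Atp6v1c1*, *Atp6v1e1*, *Atp6v1g1* and *Atp6v1h* had log2 fold changes from 0.36 to 0.46 in Ctrl and from 0.31 to 0.47 in cKO. *Atp6v1g1* in Ctrl went from 0.42 ± 0.32 to 0.69 ± 0.27 without the IL library of mouse 3546, with limma adjusted p of 0.53 and 0.14. *Atp6v1c1* was the V1 gene not called in cKO without the block, at 0.31 ± 0.13 with a limma adjusted p of 0.11.

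*Atp6v1f*, a small rotor subunit, was at 135, 131, 92.3 and 102 CPM in Ctrl CL, 169, 177, 31 and 146 in Ctrl IL, 95.5, 118 and 117 in cKO CL and 144, 153 and 144 in cKO IL. The Ctrl IL library of mouse 3546 stood far under the other 3 of its group, at 0.189 of their mean. The log2 fold change in Ctrl was 0.01 ± 0.55 with this library and 0.66 ± 0.24 without it (limma adjusted p = 0.12), and in cKO it was 0.51 ± 0.11 (0.013; 0.062 with the block). In the same library *Atp6v0e* was at 0.356 and *Atp6v1g1* at 0.562 of the mean of the other Ctrl IL libraries. The accessory subunit gene *Atp6ap1* was at 416, 628, 527 and 491 CPM in Ctrl CL, 493, 411, 615 and 507 in Ctrl IL, 342, 431 and 434 in cKO CL and 441, 437 and 539.8 in cKO IL, and *Atp6ap2*, the prorenin receptor, at 231, 227, 217 and 225 CPM in Ctrl CL, 249.6, 229, 269 and 219.8 in Ctrl IL, 173, 199 and 183 in cKO CL and 196, 196 and 226 in cKO IL. Neither was called between the hemispheres in either genotype, with or without the block, and their log2 fold changes ranged from 0.05 ± 0.18 for *Atp6ap1* in Ctrl to 0.32 ± 0.11 for the same gene in cKO.

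Of the 11 protease genes, 2 were called in Ctrl without the block, both higher in IL, and 6 with it, 5 higher and 1 lower. In cKO 4 were called without the block, all higher, and 2 with it, 1 higher and 1 lower. *Ctsb*, the cysteine protease cathepsin B, was at 7240.0, 5546, 4432 and 5062 CPM in Ctrl CL, 15344, 12473, 13474 and 11559 in Ctrl IL, 5701, 7959 and 5669 in cKO CL and 11871, 12598 and 12362 in cKO IL. All 7 IL libraries lay above all 7 CL libraries, and the log2 fold change was 1.34 ± 0.29 in Ctrl (limma adjusted p = 0.024) and 1.03 ± 0.30 in cKO (0.041, and 0.12 with the block). The call in cKO was lost without any 1 of the 6 cKO libraries, with limma adjusted p of up to 0.16 over the alternatives. *Ctsl*, cathepsin L, was at 1091, 1028, 931 and 996 CPM in Ctrl CL, 1625, 1521, 2143 and 1559 in Ctrl IL, 1248, 1674 and 995 in cKO CL and 2631, 2344 and 2295 in cKO IL. Its log2 fold changes were 0.82 ± 0.18 (limma adjusted p = 0.025) and 1.01 ± 0.22 (0.014). In Ctrl both genes missed the threshold without the IL library of mouse 3541, the IL library of mouse 3545 or the CL library of mouse 3546, each of which left 2 of the 41 genes called, and *Ctsb* also missed it without the CL library of mouse 3551. The limma adjusted p over all alternatives reached 0.13 for *Ctsb* and 0.099 for *Ctsl*.

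The other proteases did not all go the same way in value. *Ctsf*, cathepsin F, was at 325, 366, 354 and 291 CPM in Ctrl CL, 198, 229.6, 263 and 218 in Ctrl IL, 178, 253 and 355 in cKO CL and 169, 168 and 214 in cKO IL. Every Ctrl IL library lay below every Ctrl CL library and the log2 fold change was -0.48 ± 0.16, with limma adjusted p of 0.11 without and 0.0079 with the block. In cKO it was -0.38 ± 0.20 without the block (limma adjusted p = 0.22) and -0.55 with it (0.037). With the mouse as a random effect *Ctsf* was not called in cKO. *Ctss*, cathepsin S, was at 6896, 7634, 5078 and 5677 CPM in Ctrl CL, 5578, 5289.9, 5323 and 4654 in Ctrl IL, 4663, 4668 and 4566 in cKO CL and 3987, 3778 and 3428 in cKO IL. Its hemispheres overlapped in Ctrl, the 3 cKO IL libraries lay below the 3 cKO CL libraries, and its log2 fold changes of -0.19 ± 0.26 and -0.23 ± 0.21 were not called. *Ctsc*, the dipeptidyl peptidase that activates granule proteases, was at 0.57 ± 0.17 in cKO, called without the block (limma adjusted p = 0.046) but not with it (0.11) or without any 1 of the 6 cKO libraries, and at 0.40 ± 0.19 in Ctrl, called with the block only (0.033). The abundant *Ctsd* had 0.66 ± 0.33 in Ctrl and 0.52 ± 0.52 in cKO, with every IL library above every CL library of its genotype and limma adjusted p of 0.3 and 0.51. In Ctrl it was not called with the mouse as a fixed block but was called with the mouse as a random effect. *Ctsa*, *Ctsz*, *Lgmn* and *Tpp1* were not called without the block and lay between 0.14 for *Lgmn* in cKO and 0.71 for *Ctsz* in cKO. With the mouse as a fixed block *Ctsz* was called higher in Ctrl, but not with the mouse as a random effect.

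Among the glycosidase and lipid hydrolase genes, 1 of 7 was called in Ctrl without the block and 4 with it, and 3 in cKO without the block and 2 with it. *Gla*, the alpha-galactosidase that removes galactose from globotriaosylceramide, was at 17.8, 11.9, 7.8 and 15.6 CPM in Ctrl CL, 129.8, 100.4, 121 and 91.3 in Ctrl IL, 11.9, 24.2 and 29.5 in cKO CL and 81.7, 98.4 and 104 in cKO IL. No CL library reached the level of any IL library. The log2 fold change was 3.08 ± 0.28 in Ctrl (limma adjusted p = 0.00046) and 2.23 ± 0.27 in cKO (0.0024), and *Gla* was called under every alternative in both genotypes. *Psap*, which encodes the precursor of the saposin activators, was at 919.7, 2136, 2359 and 2413 CPM in Ctrl CL, 3094, 2639, 5009 and 4351 in Ctrl IL, 1406, 2266 and 2146 in cKO CL and 3156, 2914 and 3636 in cKO IL. The Ctrl CL library of mouse 3541 was the lowest of the 14 and also had the highest neutrophil sum, whose part was not tested. The log2 fold change of 1.07 ± 0.28 in Ctrl just missed the threshold without the block (limma adjusted p = 0.053; 0.017 with it), while in cKO 0.85 ± 0.21 was called (0.023; 0.096 with the block), though not without any 1 of the IL libraries or CL of mouse 788.

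*Gusb*, beta-glucuronidase, was at 714, 592, 402 and 498 CPM in Ctrl CL, 967, 932, 827 and 912 in Ctrl IL, 528, 876 and 464 in cKO CL and 1214, 1162 and 939 in cKO IL. Its log2 fold changes were 0.82 ± 0.25 in Ctrl, called with the block only (limma adjusted p = 0.0024 against 0.085), and 0.96 ± 0.25 in cKO (0.027). *Asah1*, acid ceramidase, was at 436, 529.7, 473 and 426 CPM in Ctrl CL, 461, 432, 565 and 398 in Ctrl IL, 359, 354 and 392 in cKO CL and 330.0, 322 and 388 in cKO IL, with 0.06 ± 0.18 and -0.01 ± 0.09, and its hemispheres overlapped in both genotypes. *Glb1*, *Man2b1* and *Ppt1* were not called without the block, with log2 fold changes from -0.17 for *Man2b1* to 0.42 for *Glb1*, both in Ctrl, where *Glb1* was called with the block (limma adjusted p = 0.015).

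Of the 6 membrane and other genes, 0 were called in Ctrl without the block and 4 with it, and 2 in cKO without the block and 0 with it. *Grn*, which encodes the lysosomal protein progranulin, was at 2657, 1491, 2228 and 2793 CPM in Ctrl CL, 3503, 3177, 3942 and 3625 in Ctrl IL, 2889, 3183 and 2102 in cKO CL and 3974, 3998 and 3614 in cKO IL. Its groups did not overlap, and its log2 fold change was 0.75 ± 0.21 in Ctrl (limma adjusted p = 0.071; 0.013 with the block) and 0.61 ± 0.23 in cKO (0.095). *Cln3*, the membrane protein mutated in juvenile neuronal ceroid lipofuscinosis, was at 88.8, 75, 87.1 and 81 CPM in Ctrl CL, 99, 93.5, 111 and 98.9 in Ctrl IL, 82.8, 84.9 and 84 in cKO CL and 94.3, 105 and 100.4 in cKO IL. *Lamp1*, a main glycoprotein of the lysosomal membrane, was at 1825, 1921, 1487 and 1559 CPM in Ctrl CL, 2405, 2114, 2191 and 1865 in Ctrl IL, 1655, 1733 and 1623 in cKO CL and 1782, 1890.3 and 1905 in cKO IL. The log2 fold change of *Cln3* was 0.35 ± 0.14 in Ctrl and 0.33 ± 0.10 in cKO, with limma adjusted p of 0.19 and 0.041 without the block and 0.019 and 0.092 with it. The call of *Cln3* in cKO was lost without any 1 of the 6 cKO libraries. *Lamp1* (0.41 ± 0.23 and 0.24 ± 0.15) was called with the block in Ctrl only. *Mcoln1*, the calcium channel TRPML1, was at 64.6, 79.6, 100.1 and 87.3 CPM in Ctrl CL, 73.7, 52.8, 114 and 92.5 in Ctrl IL, 69.8, 77.6 and 77.9 in cKO CL and 78.6, 73.4 and 88.5 in cKO IL, with 0.04 ± 0.18 and 0.17 ± 0.08. The phagocyte marker *Cd68* had 0.54 ± 0.16 in cKO, with a limma adjusted p of 0.044 without the block and 0.071 with it, and this call too was lost without any 1 of the 6 cKO libraries. In Ctrl it was at 0.50 ± 0.31 and was called with the block only (limma adjusted p = 0.012). *Lamp2* was not called in any comparison.

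**Figure D3:**
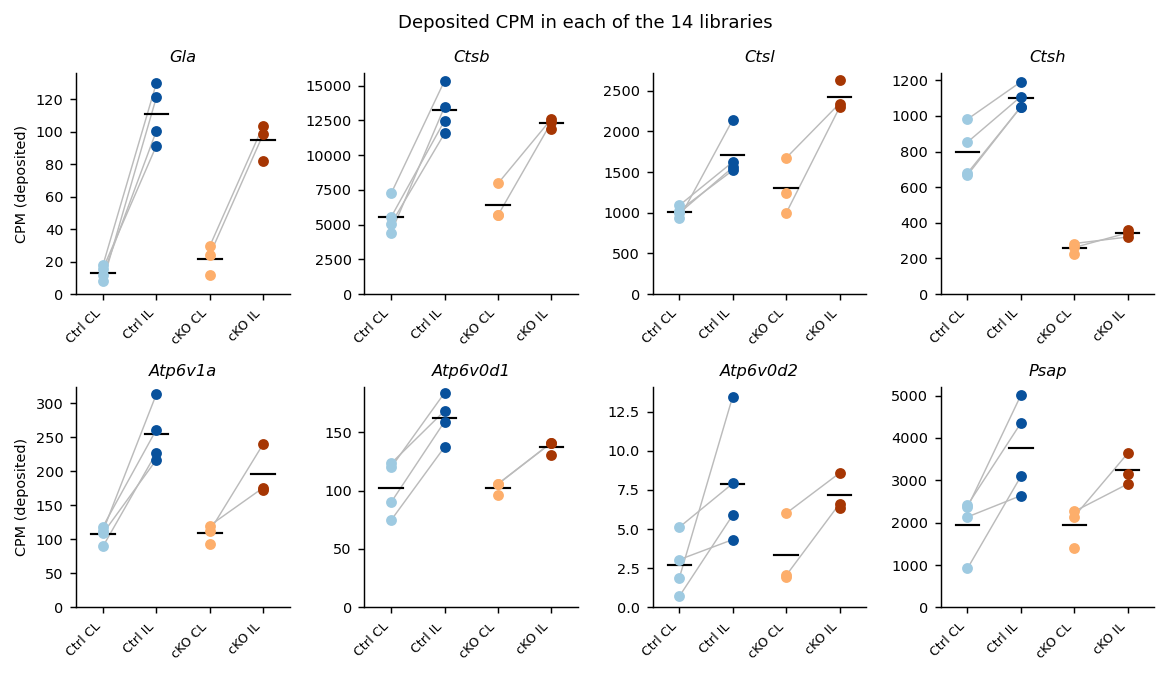
Deposited CPM of 8 genes in each of the 14 libraries by group (linear axes from 0); points are libraries, black bars are group means, and grey lines join the hemispheres of the same mouse. For *Gla* and *Ctsb* all IL points lie above all CL points, and for *Ctsh* all cKO points lie below all Ctrl points.

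Within each of the 6 mice with both hemispheres, the ratio of IL to CL could be read without a fit, as the log2 ratio of the deposited CPM + 1. Of the 41 genes, 36, 33, 34 and 35 were higher in IL in Ctrl mice 3541, 3545, 3546 and 3551, and 28 and 35 in cKO mice 791 and 3592. Over all genes tested between 39.8% and 50.2% were higher in IL. The median log2 ratio of the 41 ranged from 0.24 to 0.46 over the 6 mice, against -0.10 to 0.00 for all genes tested. In all 4 Ctrl mice 27 of the 41 genes were higher in IL, where 14.7% of all genes were, and 24 were higher in all 6 mice, where 11.2% of all genes were. *Ctsf* was the gene lower in IL in all 4 Ctrl mice, as were 28.9% of all genes, and it was lower in both cKO mice too. The ratio for *Gla* was 2.80, 2.97, 3.79 and 2.47 in the Ctrl mice and 1.98 and 1.78 in the cKO mice. The ratio for the low *Atp6v0d2* varied more between mice, with 2.33, 0.54, 2.01 and 0.40 in the Ctrl mice and 1.33 and 0.45 in the cKO mice.

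**Figure D4:**
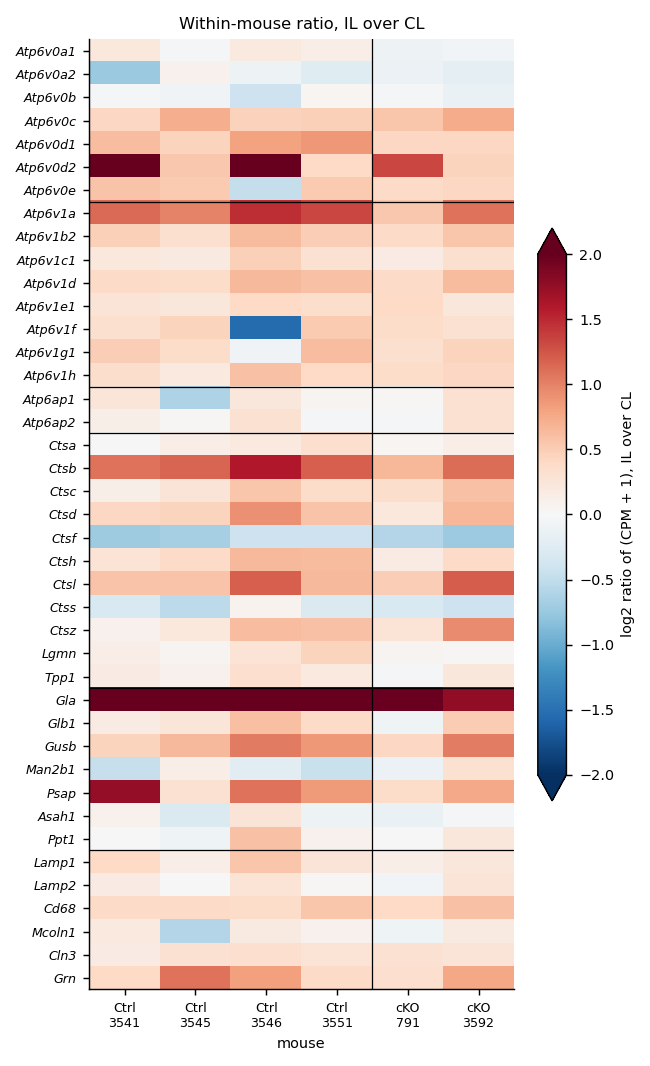
Log2 ratio of (CPM + 1) of IL over CL for the 41 genes (rows, grouped by role) in the 4 Ctrl and 2 cKO mice with both hemispheres (columns); the colour scale ends at -2 and 2. *Gla*, *Ctsb* and *Atp6v1a* are red in every mouse, *Ctsf* is blue in every mouse, and *Atp6v1f* is blue in mouse 3546 alone.

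The second comparison asked how cKO differed from Ctrl in each hemisphere. In IL 1 of the 41 genes was called, where 0.658% of all genes tested were (0.356% higher and 0.302% lower in cKO), and in CL 1 of 41, where 0.875% of all genes were (0.465% higher and 0.41% lower). The gene was *Ctsh* in both hemispheres. *Ctsh* encodes cathepsin H, a lysosomal cysteine protease with aminopeptidase activity, and lies at chr9:90054152-90076089 on the plus strand (mm10). It was at 982, 853, 668 and 679 CPM in Ctrl CL, 1192, 1109, 1051 and 1050.4 in Ctrl IL, 226, 284 and 262 in cKO CL and 362, 321 and 344 in cKO IL. Every cKO library lay below every Ctrl library, whichever the hemisphere. The log2 fold change of cKO over Ctrl was -1.67 ± 0.16 in IL (limma adjusted p = 0.0021) and -1.62 ± 0.23 in CL (0.0062), which is 3.18-fold and 3.07-fold lower. By p it stood at place 27 of 16873 genes in IL and 58 of 16569 in CL. *Ctsh* was called under every alternative and without each library in turn, with limma adjusted p from 0.00013 to 0.021 in IL and from 0.00018 to 0.05 in CL.

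*Ctsh* was also higher in every IL library than in any CL library of the same genotype. Its log2 fold change of IL over CL was 0.56 ± 0.23 in Ctrl (limma adjusted p = 0.2; 0.0075 with the block) and 0.50 ± 0.11 in cKO (0.013; 0.091 with the block). The difference between these values was -0.05 ± 0.29, with a 95% interval of -0.67 to 0.56. The genes next to it were looked at after its values were seen. Of 9 other genes tested within 1 megabase (Mb) of *Ctsh*, 1 was called, and it was *Morf4l1* in both hemispheres. *Morf4l1*, a chromatin protein gene, lies 15.6 kb beyond *Ctsh* on the minus strand (chr9:90091665-90114774) and was at 81.4, 106, 107 and 103 CPM in Ctrl CL, 94.7, 91.7, 143 and 109.8 in Ctrl IL, 48.9, 61.2 and 56.4 in cKO CL and 52.4, 58.1 and 68 in cKO IL. Its log2 fold change of cKO over Ctrl was -0.85 ± 0.12 in IL (limma adjusted p = 0.022) and -0.83 ± 0.15 in CL (0.032), and its cKO libraries all lay below its Ctrl libraries. The 9 neighbours had a median log2 fold change of -0.28 in IL and -0.38 in CL, against 0.01 and -0.06 for all genes tested. Whether the position of the 2 genes has a part in their difference was not tested.

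The other 40 genes were not called between the genotypes in either hemisphere. Their 95% intervals stayed within a 2-fold change in either direction for 38 of the 40 in IL, the exceptions being *Atp6v0e* and *Atp6v1f*, and for 36 of the 40 in CL, the exceptions being *Atp6v0d2*, *Ctsd*, *Ctss* and *Gla*. Without the Ctrl IL library of mouse 3546 the values in IL changed sign for both exceptions, from 0.45 ± 0.61 to -0.21 ± 0.14 for *Atp6v1f* and from 0.07 ± 0.42 to -0.37 ± 0.14 for *Atp6v0e*, and neither was called either way. The median interval reached 0.39 to each side of the estimate in IL and 0.49 in CL. The median log2 fold change of the 41 was -0.03 in IL and 0.01 in CL. Among the 17 V-ATPase genes, 14 were below 0 in IL and 11 in CL, with medians of -0.08 and -0.10. Of all genes tested, 8086 of 16873 were below 0 in IL and 9620 of 16569 in CL, with medians of 0.01 and -0.06.

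Some of the uncalled genes had groups that did not overlap. *Ctss* and *Asah1* lay lower in every cKO library than in any Ctrl library of the same hemisphere, on both sides, with log2 fold changes of -0.47 ± 0.20 and -0.40 ± 0.13 in IL and -0.44 ± 0.30 and -0.34 ± 0.18 in CL. Their limma adjusted p values were 0.55 and 0.36 in IL and 0.68 and 0.57 in CL. *Atp6v0a2* lay higher in every cKO library on both sides, with 0.45 ± 0.13 in IL and 0.35 ± 0.19 in CL (limma adjusted p = 0.27 and 0.59). In IL *Ctsc*, *Ctsl* and *Man2b1* were above as well, at 0.30 ± 0.15, 0.53 ± 0.15 and 0.45 ± 0.14. In all, 4 of 41 genes did not overlap with cKO above and 3 with cKO below in IL, where 4.85% and 5.48% of all genes did, and 1 and 4 in CL, where 3.98% and 6.04% did. None of these genes other than *Ctsh* passed the test. Of the marker lists above, *Olfml3* was called lower in cKO in IL (-1.14 ± 0.18) and *Mobp* in CL (-1.70 ± 0.33). In CL all 10 neutrophil and 8 border-associated macrophage markers were below 0, and none of these was called. With the mouse as a random effect *Hspa1b* and *Olfml3* were called lower in both hemispheres. *Mobp*, *Mal* and *Hspa1a* were then lower in CL, and *Itgax* higher. Their part in the values of the 41 genes was not tested.

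**Figure D5:**
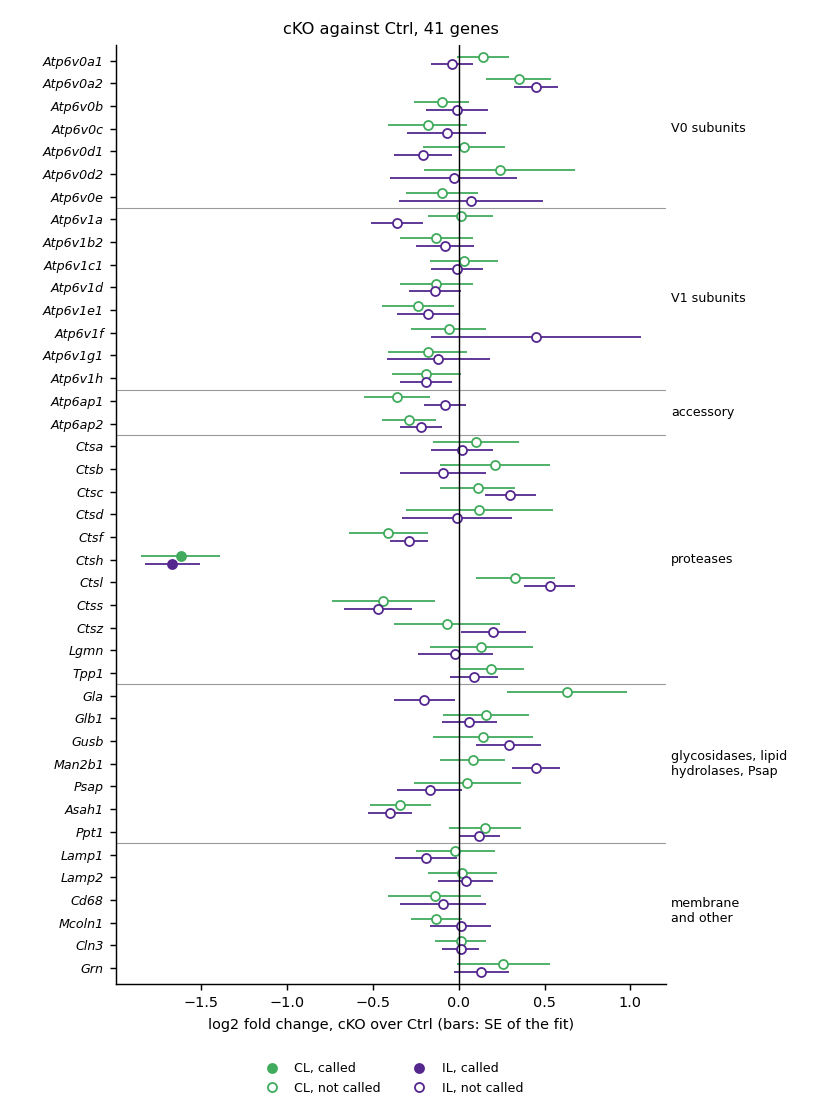
Log2 fold change of cKO over Ctrl for each of the 41 genes in CL (green, 3 against 4 libraries) and IL (purple, 3 against 4), with the SE of the limma fit; filled points were called. *Ctsh* lies at -1.67 in IL and -1.62 in CL, and the other 40 genes lie between -0.47 and 0.63.

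The third comparison tested whether the difference between hemispheres was unlike in the 2 genotypes, over all 14 libraries. None of the 41 genes was called by limma, where 0% of all 18475 genes tested were, and 0 of the 41 had an unadjusted p under 0.05, against 481 of all genes. With the mouse as a random effect 3 genes of the series were called, 0.0162% of those tested, and none of them was among the 41, while 1 of the 41 (*Gla*) and 1200 of all genes had an unadjusted p under 0.05. *Gla* had the largest difference, -0.84 ± 0.43 on the log2 scale with a 95% interval of -1.76 to 0.08, which includes 0. With the mouse as a random effect it was -0.93 ± 0.34 with an interval of -1.65 to -0.21, which leaves out 0, and a limma adjusted p of 0.67. *Atp6v1a* followed the same sign at -0.37 ± 0.24 (-0.88 to 0.13), and *Ctsl* had 0.19 ± 0.27 (-0.39 to 0.77). For 33 of the 41 genes the interval stayed within a 2-fold difference in either direction. The 4 genes called in Ctrl and the 20 in cKO are thus counts from separate tests, and limma called no difference between them for any of the 41.

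Other genes of the pathway were taken from 7 lists that hold none of the 41. Between hemispheres 3.63% of all genes tested were called higher in IL and 2.96% lower in Ctrl, and 12.8% and 9.52% in cKO. With the block these shares were 9.81% and 10.7% in Ctrl, and 8.89% and 4.93% in cKO. Of 30 other lysosomal hydrolase genes, 5 were called higher in IL in Ctrl and 11 in cKO, with none called lower (with the block, 11 higher and 3 lower in Ctrl, and 7 higher and none lower in cKO). In Ctrl the 5 were *Acp5*, tartrate-resistant acid phosphatase (2.97 ± 0.50), *Lipa*, lysosomal acid lipase (1.17 ± 0.28), *Galc*, galactosylceramidase (0.81 ± 0.18), *Neu1*, sialidase (0.64 ± 0.13), and *Gaa*, acid alpha-glucosidase (0.55 ± 0.13). In cKO the largest were *Acp5* (2.20 ± 0.44), *Hyal1* (0.99 ± 0.20), *Galns* (0.96 ± 0.12), *Lipa* (0.67 ± 0.10) and *Neu1* (0.67 ± 0.10). *Acp5* was at 15.7, 31.8, 4.84 and 10.8 CPM in Ctrl CL, 123, 131, 82.1 and 87 in Ctrl IL, 10.6, 8.48 and 35.2 in cKO CL and 56.4, 59.2 and 93.3 in cKO IL, so its groups did not overlap in either genotype.

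Of 21 lysosomal membrane and transport genes 2 were called higher in Ctrl, the channel genes *Mcoln3* (1.97 ± 0.27) and *Mcoln2* (1.81 ± 0.31), while in cKO 7 were called higher and 5 lower. The higher ones in cKO were led by *Mcoln2* (1.40 ± 0.25), *Cd63* (1.39 ± 0.18), *Tpcn2* (0.88 ± 0.16), *Slc15a3* (0.62 ± 0.19) and *Scarb2* (0.49 ± 0.12), and the lower ones were *Slc29a3* (-0.61 ± 0.14), *Slc38a9* (-0.54 ± 0.11), *Ctns* (-0.50 ± 0.11), *Tmem106b* (-0.35 ± 0.11) and *Npc1* (-0.32 ± 0.10). With the block 9 were called higher and 3 lower in Ctrl, and 5 higher and 1 lower in cKO. There *Slc29a3* was the lower one, and 4.93% of all genes were called lower. Of 6 genes of mannose 6-phosphate sorting, which sends hydrolases to the lysosome, *Igf2r* and *Gnptab* were called higher in Ctrl (3.35 ± 0.35 and 1.49 ± 0.16) and in cKO (1.84 ± 0.43 and 0.91 ± 0.13). *Igf2r* was low in CL, at 0.577 to 2.24 CPM in Ctrl and 1.52 to 6 in cKO. In IL it was at 17, 13.4, 54.9 and 23.1 CPM in Ctrl and 8.9, 14.5 and 25.9 in cKO. *M6pr* was called higher in cKO (0.51 ± 0.12), and in Ctrl with the block only (0.33 ± 0.09, limma adjusted p = 0.043). *Sort1* was called lower in cKO (-0.31 ± 0.09) but not with the block, and the interaction was not called for either gene.

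Among 8 further V-ATPase subunit genes 3 passed the filter on low values and 0 were called without the block. *Tcirg1* was at 217, 195, 322 and 271 CPM in Ctrl CL, 253, 256, 363 and 328 in Ctrl IL, 309, 270.4 and 295 in cKO CL and 322, 345 and 317 in cKO IL. The log2 fold change of *Tcirg1* was 0.34 ± 0.14 in Ctrl (limma adjusted p = 0.19; 0.027 with the block) and 0.26 ± 0.12 in cKO (0.15). Of 10 genes of V-ATPase assembly and interaction, *Dmxl2*, a rabconnectin, was called higher and *Rogdi* lower in both genotypes, at 1.61 ± 0.29 and -0.58 ± 0.15 in Ctrl and 1.18 ± 0.15 and -0.67 ± 0.12 in cKO. With the block 3 of the 10 were called higher and 1 lower in Ctrl, and 1 each way in cKO. The 1 higher and 1 lower in cKO stood near the shares of all genes, 12.8% and 9.52% without the block. Of 3 cysteine protease inhibitor genes 0 were called in Ctrl without the block and all 3 with it, and in cKO *Cstb* rose (1.59 ± 0.14) and *Cst3* fell (-1.30 ± 0.37) without the block. With the block *Cstb* (2.83-fold) and *Cst7* (2.25-fold) were called higher in cKO and *Cst3* was not called.

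Of 16 genes of the TFEB family and the Rag-Ragulator complex, which couples the lysosome to nutrient signalling, *Fnip2* (1.74 ± 0.22) and *Tfec* (a 2.01-fold change, limma adjusted p = 0.05) were called higher in Ctrl. In cKO 6 were called higher, led by *Fnip2* (1.11 ± 0.14), *Tfec* (1.02 ± 0.31), *Lamtor2* (0.69 ± 0.13), *Lamtor5* (0.48 ± 0.10) and *Lamtor1* (0.42 ± 0.08), and *Flcn* was lower (-0.33 ± 0.09). With the block 4 were called higher in Ctrl, and in cKO 3 were called higher (*Fnip2*, *Tfec* and *Lamtor2*) and 0 lower. *Tfec* was low, at 1.12 to 2.57 CPM in Ctrl CL, 3.92 to 5.55 in Ctrl IL, 0.637 to 1.74 in cKO CL and 1.55 to 4.94 in cKO IL. *Tfeb* was at 47.2, 45.4, 63 and 53.4 CPM in Ctrl CL, 47.8, 45, 49.2 and 52.2 in Ctrl IL, 52.5, 53.4 and 64.1 in cKO CL and 53.5, 49.9 and 48.6 in cKO IL, with log2 fold changes of -0.02 ± 0.14 in Ctrl and -0.07 ± 0.11 in cKO, and its hemispheres overlapped. Between the genotypes 1 gene of the 7 lists was called, the Rag GTPase gene *Rraga*, lower in cKO in CL (-0.94 ± 0.18, limma adjusted p = 0.046), and 0 of their genes were called in IL. Over all genes tested 0.875% were called in CL and 0.658% in IL. With the mouse as a random effect *Rraga* was not called, and *Gnptab* was called higher in cKO in CL (0.72 ± 0.16, limma adjusted p = 0.03).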

How the data were processed

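CD11b+ cells of 14 hemispheres at 3 days post-TBI gave Smart Seq v4 libraries. The authors mapped reads with STAR to mm10 and used Partek 8.0. They deposited values under the name raw counts, but each library sums to 1000000, so the deposited values are CPM. Of values under 100 reads, 79% to 83.7% were whole multiples of a step per library (tolerance 0.03), so no count test was run. The steps gave 12.2 to 41.6 M reads per library. 2 deposited tables of the authors' comparisons (p-values, fold changes and group means) were not used, and 0 columns were left unmapped.

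Each fit divided the CPM by unweighted factors from the trimmed mean of M-values (30% of M and 5% of A trimmed), took log2(CPM + 1), and kept genes that had at least the equivalent of 10 reads (at median depth) in a number of libraries equal to the size of the smaller group, and 15 over all of them. limma 3.58.1 (R 4.3.3, trend, empirical Bayes) fitted the libraries compared. p was adjusted by Benjamini-Hochberg over all genes tested, and intervals are 95% intervals of the fit. The fit without the block was run on simulated libraries with known changes. These held no correlation between the hemispheres of a mouse, and the fits with the mouse as a block were not simulated.

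The labels give each library a mouse number. Deviations of the 2 hemispheres of a mouse from their group means correlated at 0.182 to 0.608 in all 6 mice, against -0.536 to 0.503 for other pairs, so the number was taken to pair them. Mice 784 (IL alone) and 788 (CL alone) were taken as different animals, as their numbers say. Their deviations correlated at 0.181, close to the 0.182 of mouse 791, and if they were 1 animal the blocked cKO fits would have a further pair and other values. Nothing says that the samples of a group came from separate litters, so p-values measure the spread between these mice.

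The 41 genes, the role groups, the pathway and marker lists and the promoter motifs were chosen with earlier results of these data known. Values in every library are given for genes called between genotypes, the 3 genes of each role group with the smallest p and the 1 with the largest p between hemispheres in Ctrl, and 2 paralog pairs. Pathway genes are named when called, up to 5 in each direction, with *Tcirg1* and *Tfeb* in any case. Symbols and positions come from GENCODE M21 (GRCm38). The gene deleted in cKO mice is not reported here. Alternatives were other scalings, pseudocounts of 0.5 and 0.1, other filters and call rules, all 14 libraries in 1 fit, the mouse as a fixed or random block, and each library left out.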

Additional observations from a re-analysis of the deposited data

Results flagged for a closer look

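The level of each of the 25 genes with values in every library was checked for a library far from the other 3 of its group, in the Ctrl CL and Ctrl IL groups, which makes 50 groups of 4. A value was marked when its gap to the nearest library exceeded Dixon's critical value as a share of the whole range, which chance does in about 1 of 20 groups. There were 2 such values, both in the Ctrl IL library of mouse 3546. *Atp6v0b* was at 289 CPM there, with the other 3 libraries at 375 to 378 CPM. *Ctsl* was at 2143 CPM, with the others at 1521 to 1625 CPM. The groups of 3 cKO libraries were too small for this check.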

How the results depend on the processing

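Between cKO and Ctrl, 1 of the 41 genes was called in each hemisphere under every alternative and without each library, and 0 were called in the interaction. *Ctsh* kept its direction and its call throughout. Between hemispheres in Ctrl the 4 called genes became 7 with the deposited CPM unscaled (6 higher and *Ctsf* lower), 7 with median-ratio scaling, 2 with no filter, 11 with all 14 libraries in 1 fit, and 23 with the mouse as a fixed or as a random replicate block, and leaving out 1 library gave 2 to 6. In cKO the 20 became 12 with no filter, 4 with all 14 libraries in 1 fit, 4 at a fold of at least 2 and 12 with the fixed replicate block, and leaving out 1 library gave 8 to 15. The lowest were 8 without cKO IL of mouse 784, 9 without cKO IL of mouse 791, and 13 without cKO CL of mouse 788 or of mouse 791. The cause of these shifts was not tested, except that a larger fold threshold passes fewer genes. The other alternatives stayed within 1.5 times of 4 and of 20. No called value changed sign under any alternative. All genes tested moved in the same way, from 1078 to 3358 called in Ctrl and from 3746 to 2315 in cKO with the fixed block. Between genotypes the mouse as a random replicate block changed no call of the 41. Depth was lowest, at 12.2 M reads, in Ctrl IL of mouse 3546, and with 3 or 4 libraries a group, some changes of over 2-fold were not called in Ctrl without the block, such as *Atp6v0d2* at 2.59-fold and *Psap* at 2.1-fold.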
